A study of Mus musculus with 8 samples.

Results

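The 30 nuclear receptors described here were taken from a list of gene symbols that leaves out the retinoic acid and retinoid X receptors, and all 30 were found by symbol among the 32543 genes of the deposited matrices. Of these, 22 had enough counts to be among the 14157 genes tested between genotypes, and 8 did not. In control cells 18 of the 30 were at or above 1 TPM (transcripts scaled to gene length and library), with the thyroid hormone receptor gene Thra far above the others. None of the 22 was called between the genotypes at an adjusted p under 0.05, where 5 of the 14157 genes (0.0353%) were.

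Nuclear receptors are transcription factors that bind DNA through a zinc finger domain and, in many cases, a small fat-soluble ligand through a pocket in their carboxy-terminal part. Receptors for hormones such as thyroid hormone, glucocorticoid or oestradiol change their activity when the ligand binds, and they act through coactivators or corepressors. Orphan receptors act without a known hormone and are controlled largely by how much of them is made. In the developing forebrain several nuclear receptors pattern progenitors, time differentiation or respond within minutes to stimulation.

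GFP-expressing cells were sorted from dissected mouse amygdala tissue at E16.5 and their RNA was sequenced. The labels call these cells amygdala intercalated cells. Intercalated cells are clusters of GABAergic neurons that lie around the basolateral amygdala. Control libraries came from Tshz1GFP/+ embryos and knockout libraries from Tshz1GFP/RA embryos, with 4 libraries per genotype, so 1 GFP allele of Tshz1 is carried by both groups and the sort itself depends on that locus. All mice were on an outbred background, tissue of embryos of the same genotype was pooled before dissociation, and the labels do not say which part of Tshz1 the RA allele lacks. The libraries are named here by genotype and by the prefix of their title (NX, NY, QT, RM), which 1 control and 1 knockout library share and whose meaning the labels do not give. Where 4 values are given for a genotype, they are in the order NX, NY, QT, RM. P-values measure the spread between these pools, since nothing says that the pools came from separate litters.

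The libraries held between 5785612 and 14535867 expected counts. In CPM (counts scaled to a common library total) 3 counts correspond to between 0.186 (control NX) and 0.545 (control RM). Tshz1, the gene disrupted in the knockout, lay between 240 and 492 CPM in the control and between 55.9 and 121 CPM in the knockout libraries (log2 fold change -2.27, SE 0.30, adjusted p = 0.0388). Fold changes, standard errors and 95% intervals are from edgeR's quasi-likelihood fit, and p-values are adjusted over all tested genes by the Benjamini-Hochberg method. The adjusted p was 0.9997 for each of the 22 tested receptors, so their intervals are given in its place. The 9 GABAergic marker genes summed to between 2013 and 2892 CPM in the control and between 2250 and 2504 CPM in the knockout libraries, with none of them at 0 in all libraries. Microglial genes (14) summed to between 11.5 and 192 CPM in the control and between 17.9 and 91.3 CPM in the knockout libraries. Of these 12 were tested, and 0 were fitted higher and 12 lower (median log2 fold change -1.05, 0 called). The 10 intercalated cell markers, of which Tshz1 is 1, had 2 fitted higher and 8 lower (median -0.37, 1 called, Tshz1) and summed to between 2072 and 3485 CPM in the control and between 1761 and 2538 CPM in the knockout libraries. Genes of the vascular and meningeal list (13, with Lum at 0 throughout) summed to at most 58.7 CPM. The 10 pallial glutamatergic genes summed to 43.8, 406, 402 and 275 CPM in the control libraries. In the knockout libraries they summed to 190, 329, 536 and 370 CPM (6 genes fitted higher, 4 lower, 0 called). The 9 neuronal genes summed to between 4978 and 7144 CPM in the control and between 5432 and 7134 CPM in the knockout libraries. For the oligodendrocyte list (7 genes) these ranges were 19.9 to 73.8 CPM and 44.4 to 71.7 CPM. Both NX libraries stood apart in other marker lists: 26 immediate early genes summed to 1053 CPM (control NX) and 1280 CPM (knockout NX) against 208 to 359 CPM elsewhere, and 14 radial glia and astrocyte genes to 240 CPM in control NX and 501 CPM in knockout NX against 853 to 1835 CPM elsewhere. Control NX was also the library with the lowest CPM for 12 of the 22 tested receptors, compared with 17.6% of all tested genes.

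Levels of different receptors were compared in TPM, the deposited unit that scales a transcript's share of a library to its length. In control cells 18 of the 30 receptors had a mean of at least 1 TPM, against 43.5% of all 32543 genes, and 9 of them were at or above 1 TPM in all 8 libraries. Only 5 had a control mean of at least 10 TPM (Thra, Nr2c2, Esrrg, Nr2f1 and Esrra), 13 lay between 1 and 10 TPM and 12 below 1 TPM. The number expressed was 20 with a limit of 0.5 TPM, 14 with a limit of 2 TPM, 18 on the knockout means, and 12 when every control library had to reach 1 TPM. In sorted bulk RNA, expression in fewer cells and less RNA per cell cannot be told apart.

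**Figure D1:**
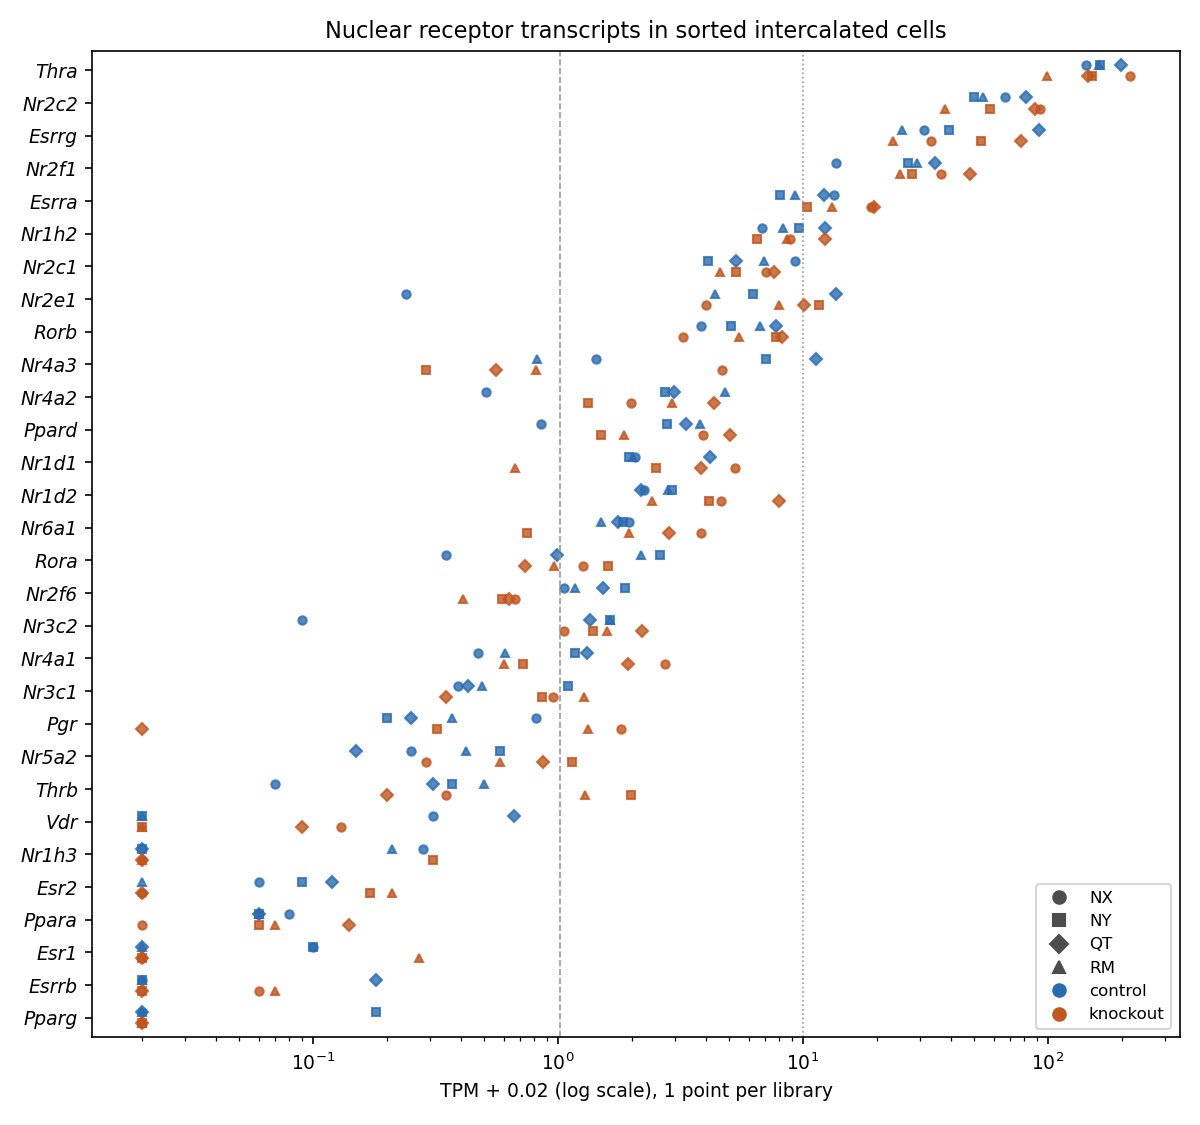
TPM of each of the 30 nuclear receptors in each library (horizontal axis, TPM plus 0.02, log scale), ordered by control mean. Colours give the genotype, symbols the title prefix, and the vertical lines mark 1 and 10 TPM. Thra lies to the right of every other receptor in all 8 libraries, and 7 receptors at the bottom (Vdr, Nr1h3, Esr2, Ppara, Esr1, Esrrb and Pparg) lie under 1 TPM in every library.

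The thyroid hormone receptors differed in level by more than any other pair of close relatives that were both tested. Thra encodes thyroid hormone receptor alpha, the form that predominates in fetal brain, and it was the most abundant member. It was at 143 (NX), 162 (NY), 199 (QT) and 162 TPM (RM) in the control and at 217, 151, 145 and 98.8 TPM in the knockout libraries. With a control mean of 167 ± 23.5 TPM (SD, n = 4) it exceeded 98.4% of all genes and made up 45.6% of the summed TPM of the 30 receptors. In TPM every library held more Thra than any other receptor, and the genotypes overlapped. In CPM, which is not scaled to length, Nr2c2 lay above Thra. Nr2c2 was at 215 to 314 CPM (control) and 240 to 342 CPM (knockout), against 133 to 198 and 132 to 186 for Thra. On the CPM scale Thra was at 178 ± 30.2 in the control and 157 ± 22.4 in the knockout (SD, n = 4 each, log2 fold change -0.18, 95% interval -0.61 to 0.25). Without control NX, the lowest control library, the log2 fold change was -0.29. Thra (chromosome 11, 98740638 to 98769006, plus strand, GRCm38) and Nr1d1 (98767932 to 98775333, minus strand) overlap tail to tail. They share 263 exonic bases, 5.7% of those of Thra and 8.55% of those of Nr1d1, and since the kit does not mark the strand, fragments there cannot be assigned to either strand.

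Thrb encodes thyroid hormone receptor beta, which is known for roles in the retina, the inner ear and the feedback on the pituitary. Its TPM was 0.05, 0.35, 0.29 and 0.48 in the control and 0.33, 1.96, 0.18 and 1.27 in the knockout libraries. The ratio of mean TPM, Thra over Thrb, was 569 in the control and 164 in the knockout. In CPM, Thrb was at 0.124, 1.18, 0.842 and 1.82 in the control and at 0.817, 6.29, 0.609 and 6.32 in the knockout libraries. The knockout NY and RM libraries were thus above all others, while knockout NX and QT lay within the control range. The log2 fold change of 1.86 (SE 0.95, 95% interval -0.19 to 3.91) did not pass. With 1 library left out it ran from 1.39 (without knockout NY) to 2.28 (without control RM). In limma on log2(TPM + 1) it was 0.49. The counts behind these values are small, between 2 and 16 in the control and between 3.57 and 76 in the knockout libraries.

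Genes that supply or respond to thyroid hormone were read from the same fit. The activating deiodinase Dio2 was at 0, 1.63, 0.918 and 5.45 CPM in the control and at 0, 1.99, 0.304 and 6.66 CPM in the knockout libraries, and Dio1 was at 0 in all 8. Of 22 genes of hormone activation and transport, 14 were tested, 4 were fitted higher and 10 lower in the knockout, and 0 were called. Their median log2 fold change was -0.29, beside -0.01 over all tested genes. The smallest p of the list belonged to Slc7a5, an amino acid transporter subunit that also carries thyroid hormone, at 27.8 ± 6.49 CPM in the control and 17.6 ± 7.42 CPM in the knockout (SD, n = 4 each, log2 fold change -0.67, SE 0.35). Of 15 thyroid hormone response genes, 7 were tested, 4 fitted higher and 3 lower with a median of 0.35, and none was called. Hr, the corepressor hairless and a direct target of the hormone receptor in brain, had the smallest p of that list (log2 fold change -1.29, SE 0.65).

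The orphan and developmental receptors followed in level, with 6 of 7 members at or above 1 TPM. Nr2c2 (testicular receptor TR4) was at 66.9, 49.8, 81.5 and 54.2 TPM in the control and at 92.8, 58.05, 88.6 and 38.01 TPM in the knockout libraries. Its control mean of 63.1 ± 14.2 TPM (SD, n = 4) made up 17.3% of the summed TPM of the receptors. It was the second receptor by mean, though its range overlapped that of Esrrg, the third. Its close relative Nr2c1 (TR2) had 6.41 ± 2.25 TPM and lay below Nr2c2 in all 8 libraries, with a ratio of means of 9.85 in the control and 11.3 in the knockout. On the other strand, exons of Mrps25, a mitochondrial ribosomal protein gene, cover 4590 of the 14935 exonic bases of Nr2c2 (chromosome 6, 92091390 to 92174294), so part of the fragments in this level may belong to either gene. Mrps25 itself was at 19.96 to 36.0 CPM in the control and 21.0 to 41.4 CPM in the knockout libraries, against 215 to 314 CPM and 240 to 342 CPM for Nr2c2. The genotype difference of Nr2c2 was bounded closely (log2 fold change 0.13, 95% interval -0.31 to 0.57), and that of Nr2c1 less so (-0.02, interval -0.72 to 0.69).

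Nr2f1 (COUP-TFI), which patterns cortical areas and takes part in the development and migration of GABAergic interneurons, was at 13.6, 26.8, 34.5 and 29.1 TPM in the control libraries (NX, NY, QT, RM). In the knockout libraries it was at 36.7, 27.8, 48.2 and 24.9 TPM. Its level in CPM was 14.2, 34.7, 39.2 and 42.5 in the control and 35.3, 34.8, 55.0 and 47.9 in the knockout libraries. Control NX was the low library, and the 7 others lay between 34.7 and 55.0 CPM with the genotypes overlapping. In CPM the knockout library was the higher for all 4 prefixes, though in NY only at 34.78 against 34.71. The log2 fold change was 0.41 (SE 0.32, 95% interval -0.29 to 1.11), and it ran from 0.16 without control NX to 0.56 without control RM.

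Nr2e1 (tailless, TLX), which maintains neural stem cells and the ventricular zone of the embryonic telencephalon, had the highest ratio of its highest to its lowest TPM among the 9 most abundant receptors in the control libraries. It was at 0.22, 6.25, 13.6 and 4.35 TPM in the control and 4.01, 11.6, 10.1 and 7.96 TPM in the knockout libraries. In CPM these levels were 0.310, 7.85, 17.2 and 7.81 in the control and 4.15, 15.6, 12.6 and 18.8 in the knockout libraries. Both NX libraries were the lowest of their genotype. They were also the lowest of their genotype in the summed CPM of 14 radial glia and astrocyte genes (240, 1309, 866 and 1350 in the control, 501, 1067, 853 and 1835 in the knockout libraries) and of 16 genes of dividing cells (151, 595, 837 and 505 in the control, 195, 1387, 1265 and 1178 in the knockout libraries). In the first of these lists 4 of 12 tested genes were fitted higher and in the second 15 of 16, with 0 called in either, and no gene of either list was at 0 in all libraries. The log2 fold change of Nr2e1 was 0.62 (SE 0.77, 95% interval -1.04 to 2.28). It was 0.21 without control NX and 1.28 without control QT. With the title prefix as a block in the fit it was 1.17 (edgeR, adjusted p = 0.694). The part of these other cells in the level of Nr2e1 was not tested.

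**Figure D2:**
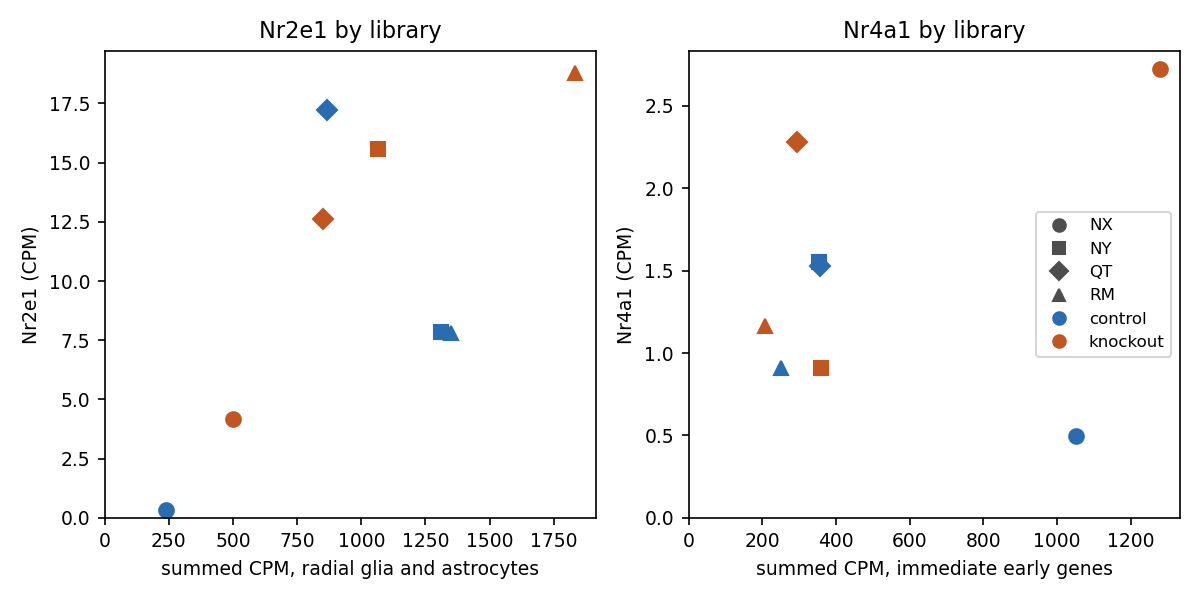
Left, Nr2e1 in CPM against the summed CPM of 14 radial glia and astrocyte genes. Right, Nr4a1 in CPM against the summed CPM of 26 immediate early genes. Each point is 1 library, with colours for the genotype and symbols for the title prefix. Both NX libraries lie at the lower left of the left plot, and on the right they lie farthest along the horizontal axis at opposite ends of the Nr4a1 scale (0.496 CPM in control NX and 2.72 CPM in knockout NX).

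Nr6a1 (germ cell nuclear factor, which silences pluripotency genes in the early embryo) was at 1.93, 1.82, 1.74 and 1.48 TPM in the control and 3.80, 0.73, 2.81 and 1.93 TPM in the knockout libraries. Its control libraries differed little and its knockout libraries spanned them on both sides (log2 fold change 0.47, 95% interval -0.54 to 1.48). Nr5a2 (liver receptor homologue LRH-1) was at 0.13 to 0.56 TPM in the control and 0.27 to 1.12 TPM in the knockout libraries, on between 3 and 26 counts per library (log2 fold change 1.14, 95% interval -0.59 to 2.87).

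Nr2f6 (EAR2), another COUP-TF relative, was the only 1 of the 30 receptors whose genotypes did not overlap. It was at 1.04, 1.85, 1.50 and 1.15 TPM in the control and at 0.65, 0.57, 0.61 and 0.39 TPM in the knockout libraries, means of 1.39 ± 0.367 and 0.555 ± 0.115 TPM (SD, n = 4 each). Its mean thus crossed 1 TPM between the genotypes. The separation rests on 8, 16, 13 and 4 counts in the control and 4, 4, 2 and 2 counts in the knockout libraries, of which 2 are at or under the floor of 3 counts. Because of these low counts it did not enter the main test. In the fit without the filter on low counts its log2 fold change was -1.42 (adjusted p = 0.912 in edgeR with Benjamini-Hochberg adjustment). Among the 14157 tested genes, 2.59% had genotypes that did not overlap in CPM, and 0 of the 22 tested receptors did. More than its own transcript may be counted, since exons of Ocel1 on the other strand cover 54.4% of the exonic bases of Nr2f6 (chromosome 8, 71374123 to 71381960).

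Of the oestrogen-related receptors, orphan receptors that drive genes of mitochondria and oxidative metabolism, 2 were abundant and the third was at the floor. Esrrg was at 31.1, 39.4, 91.8 and 25.3 TPM in the control and at 33.4, 53.4, 77.8 and 23.2 TPM in the knockout libraries. Both QT libraries were the highest of their genotype and both RM libraries the lowest in TPM. The means, 46.9 ± 30.5 and 47.0 ± 24.1 TPM (SD, n = 4 each), had a spread much larger than their difference (log2 fold change from the counts 0.05, 95% interval -0.79 to 0.89).

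Esrra was at 13.4, 8.02, 12.2 and 9.23 TPM in the control and at 18.9, 10.4, 19.5 and 13.1 TPM in the knockout libraries. In CPM it was at 14.1, 10.5, 13.9 and 13.8 in the control and at 18.6, 13.2, 23.1 and 26.0 in the knockout libraries. Esrra was higher in the knockout library of all 4 prefixes, as were Nr1d2, Nr2f1 and Nr5a2 in CPM. In CPM the genotypes overlapped only through knockout NY, which lay below 3 of the control libraries. In TPM knockout RM (13.1) also lay below control NX (13.4). The log2 fold change of 0.62 (SE 0.29) had a 95% interval of -0.01 to 1.26 and did not pass (adjusted p = 0.9997 in edgeR with Benjamini-Hochberg adjustment). Under 20 alternatives it ran from 0.47 to 0.79, and the lowest adjusted p among them was 0.689. Esrrg lay above Esrra in all 8 libraries, by 4.38 times in the control mean and 3.04 times in the knockout mean. Esrrb, a pluripotency factor, had 4 counts in 1 control library, 1 count in each of 2 knockout libraries and 0 in the other 5.

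The sequences before the start sites of Esrra and Esrrb are printed as examples of the CpG content of an abundant and a scarce member of this family. Both are the 250 bases upstream of a RefSeq start (GRCm38.p6), in lower case with each CG in capitals. The Esrra window is at chr19:6921809-6922058 on the minus strand and holds 22 CpG, and the first of the Esrrb windows is at chr12:86360867-86361116 on the plus strand and holds 6.
Esrra: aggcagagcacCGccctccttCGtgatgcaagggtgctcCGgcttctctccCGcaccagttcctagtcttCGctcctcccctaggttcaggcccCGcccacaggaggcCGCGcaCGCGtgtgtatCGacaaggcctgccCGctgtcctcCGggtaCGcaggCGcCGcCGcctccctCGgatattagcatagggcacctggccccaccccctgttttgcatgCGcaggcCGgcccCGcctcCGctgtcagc
Esrrb: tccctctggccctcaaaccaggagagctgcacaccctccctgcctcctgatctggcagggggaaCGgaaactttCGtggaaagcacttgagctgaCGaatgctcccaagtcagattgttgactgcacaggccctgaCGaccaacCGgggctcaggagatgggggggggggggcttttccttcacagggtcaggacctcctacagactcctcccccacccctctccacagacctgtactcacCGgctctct
The median over 32851 such windows of all genes was 6 CpG, and over the 41 windows used for 28 of the receptors it was 13. Taking for each receptor its window with the most CpG, the 17 at or above 1 TPM ranged from 7 to 44 (median 18) and the 11 below 1 TPM from 4 to 38 (median 11). The ranges overlapped widely, and Pparg, nearly absent here, had a window with 38.

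The clock-linked receptors were all expressed at a low to moderate level, between 1 and 10 TPM in the control mean. The REV-ERB receptors Nr1d1 and Nr1d2 repress the clock gene Arntl, and the ROR receptors Rora and Rorb activate it from the same DNA elements. Nr1d2 was the single member with an unadjusted p under 0.05, where 3.62% of all tested genes were. It was at 3.78 (NX), 7.48 (NY), 4.82 (QT) and 6.00 CPM (RM) in the control and at 6.40, 10.3, 15.2 and 9.32 CPM in the knockout libraries. Every prefix had more in its knockout than in its control library, but the genotypes overlapped, since knockout NX lay below control NY. The mean was 5.52 ± 1.59 CPM in the control and 10.3 ± 3.67 CPM in the knockout (SD, n = 4 each), a ratio of 1.87. The log2 fold change was 0.90 (SE 0.40, 95% interval 0.02 to 1.77). It was 0.75 without control NX and 0.65 without knockout QT. Among the fits that each left out a single library, the unadjusted p was under 0.05 only without control NY and without knockout NX. The unadjusted p was also not under 0.05 without composition factors, without the low-count filter or in limma. After Benjamini-Hochberg adjustment over 14157 genes Nr1d2 was not called (edgeR, adjusted p = 0.9997). In TPM it was at 2.22, 2.90, 2.17 and 2.79 in the control and at 4.62, 4.13, 7.99 and 2.39 in the knockout libraries, and on that scale knockout RM fell inside the control range. Across 20 alternatives the log2 fold change stayed between 0.50 and 1.09, and the lowest adjusted p was 0.680.

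The window upstream of Nr1d2 (chr14:18239107-18239356, minus strand, 15 CpG) is shown because it holds the hexamer AGGTCA, the core letters that many nuclear receptors recognise, here in capitals.
Nr1d2: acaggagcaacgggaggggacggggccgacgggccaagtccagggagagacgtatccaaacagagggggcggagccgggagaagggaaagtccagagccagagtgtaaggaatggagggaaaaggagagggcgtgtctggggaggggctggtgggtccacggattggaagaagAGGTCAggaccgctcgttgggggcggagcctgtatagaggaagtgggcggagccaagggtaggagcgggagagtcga
This hexamer was searched on both strands and was present in 5 of the 28 receptors whose windows were used (Nr1d2, Nr5a2, Nr6a1, Pparg and Thrb). Counted by window, it was present in 6 of the 41 receptor windows (14.6%) and in 14% of all 32851 windows. The E-box CACGTG, bound by the clock activators, was present in 2 of the 41 windows (4.88%), those of Esr2 and Thrb, and in 6.02% of all windows. A match describes letters only.

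Nr1d1 was at 2.05, 1.92, 4.15 and 2.00 TPM in the control and 5.26, 2.50, 3.81 and 0.65 TPM in the knockout libraries, and its log2 fold change was 0.17 (95% interval -1.02 to 1.36). Nr1d2 exceeded Nr1d1 in 6 of 8 libraries. Rorb, a receptor of the retina and of cortical layer formation, had 5.82 ± 1.72 TPM in the control and 6.16 ± 2.29 TPM in the knockout (SD, n = 4 each) and lay above Rora in all 8 libraries. Rora was at 0.33, 2.59, 0.97 and 2.17 TPM in the control and 1.25, 1.58, 0.71 and 0.94 TPM in the knockout libraries, so 4 libraries were on each side of 1 TPM. The intervals of their log2 fold changes, -0.67 to 0.89 for Rorb and -1.29 to 1.01 for Rora, include changes in either direction. Of 18 circadian clock genes, 17 were in the matrices and 15 were tested. Of these 15, 4 were fitted higher and 11 lower, with a median of -0.12 and none called. Hlf, an output transcription factor of the clock, had the smallest p (8.22 ± 2.26 CPM in the control and 4.36 ± 2.06 CPM in the knockout, SD, n = 4 each, log2 fold change -0.92, SE 0.50).

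**Figure D3:**
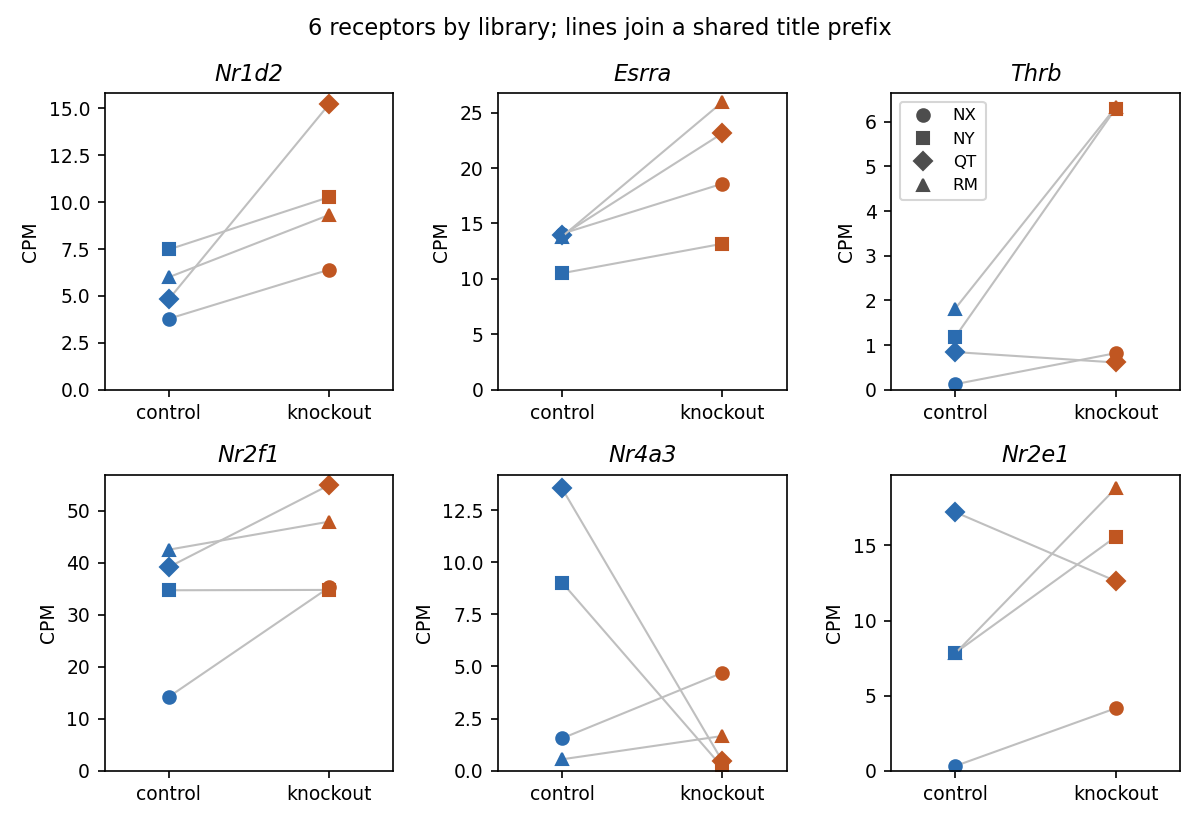
CPM of 6 receptors in the control (blue) and knockout (orange) libraries, each panel with its own vertical axis from 0. Symbols give the title prefix and grey lines join the libraries that share it. Nr1d2, Esrra and Nr2f1 lie higher in the knockout library of all 4 prefixes with overlapping genotypes, Nr2f1 by very little in NY. Nr4a3 runs from 0.545 to 13.5 CPM within the control alone.

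The NR4A receptors are orphan receptors encoded by immediate early genes, which neurons transcribe within minutes of stimulation. Nr4a3 (NOR1) was at 1.41, 7.03, 11.3 and 0.80 TPM in the control and 4.66, 0.27, 0.54 and 0.79 TPM in the knockout libraries. The corresponding CPM were 1.55, 9.03, 13.5 and 0.545 in the control and 4.70, 0.166, 0.457 and 1.66 in the knockout libraries. Control NY and QT were the high libraries, and control NX and RM lay among the knockout libraries. The log2 fold change of -1.79 (SE 1.02, 95% interval -4.01 to 0.43) did not pass, and it ran from -3.44 to -0.77 over 20 alternatives, with a lowest adjusted p of 0.632. Without knockout NX it was -3.10, and without control QT it was -1.07.

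Nr4a2 (NURR1), best known as a factor of dopaminergic neurons, was at 0.49, 2.72, 2.96 and 4.80 TPM in the control and 1.96, 1.31, 4.31 and 2.90 TPM in the knockout libraries. In CPM it was at 0.682, 4.59, 4.51 and 9.09 in the control and at 2.52, 2.15, 6.24 and 7.49 in the knockout libraries. Control NX was low, the genotypes overlapped almost fully, and the log2 fold change was -0.03 (95% interval -1.55 to 1.48). It was -0.40 without control NX and 0.48 without control RM. Nr4a1 (NUR77) was at 0.45, 1.15, 1.29 and 0.59 TPM in the control and at 2.70, 0.70, 1.91 and 0.58 TPM in the knockout libraries, so its mean was 0.870 TPM in the control and 1.47 TPM in the knockout. It was at 0.496, 1.55, 1.53 and 0.909 CPM in the control and at 2.72, 0.911, 2.28 and 1.17 CPM in the knockout libraries, on 5 to 40 counts per library (log2 fold change 0.65, 95% interval -0.84 to 2.14).

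The other immediate early genes summed highest in the NX libraries of both genotypes, whereas Nr4a1 and Nr4a3 were highest in NX among the knockout libraries only. Fos was at 57.0, 16.6, 7.96 and 0 CPM in the control and 69.7, 17.1, 10.7 and 0 CPM in the knockout libraries, and Egr1 at 249, 45.9, 9.34 and 2.54 CPM and at 282, 37.1, 15.98 and 6.49 CPM. In control NX, where Egr1 was at 249 CPM, Nr4a1 and Nr4a2 had their lowest levels of the 8 libraries. The part of this difference between libraries in the NR4A levels was not tested. Of 26 immediate early genes, 20 were tested, 8 were fitted higher and 12 lower with a median of -0.30, and 0 were called. Klf6, a zinc finger factor, had the smallest p (25.7 ± 5.80 CPM in the control and 116 ± 121 CPM in the knockout, SD, n = 4 each, log2 fold change 2.18, SE 0.53, adjusted p = 0.491 in edgeR with Benjamini-Hochberg adjustment). Its knockout libraries all lay above its control libraries, with 297 CPM in knockout NX and 51.2 to 62.3 CPM in the other 3.

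The steroid receptors were scarce. The mineralocorticoid receptor Nr3c2 was the only 1 of 5 with a control mean above 1 TPM, at 0.07, 1.61, 1.33 and 1.61 TPM in the control and 1.04, 1.37, 2.18 and 1.57 TPM in the knockout libraries. Control NX, with 2 counts, stood far below the 7 other libraries (log2 fold change 0.46, 95% interval -1.27 to 2.18). That fold change was 0.04 without control NX and 0.75 without control RM. The glucocorticoid receptor Nr3c1 was at 0.37, 1.08, 0.41 and 0.47 TPM in the control and at 0.93, 0.84, 0.33 and 1.26 TPM in the knockout libraries, and lay below Nr3c2 in 7 of 8 libraries. Its log2 fold change was 0.78 (95% interval -0.77 to 2.34), and single libraries moved it, to 0.16 without knockout RM and to 1.44 without control NY. The progesterone receptor Pgr had 31, 7, 8 and 7 counts in the control and 50, 9, 0 and 38 counts in the knockout libraries. Its level in CPM, 1.92, 0.518, 0.612 and 1.27 in the control and 3.40, 0.745, 0 and 6.32 in the knockout libraries, spread more within the knockout than between the genotypes (log2 fold change 1.26, 95% interval -0.96 to 3.49). That fold change was 0.40 without knockout RM and 1.74 without control NX.

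The oestrogen receptors were at the limit of detection. Esr1 had 3 counts in each of control NX and NY, 8 counts in knockout RM and 0 in the other 5 libraries, and Esr2 had at most 3 counts in any library. A library with 0 counts allows a level of up to 3 counts, between 0.186 and 0.545 CPM here, and these limits cover counting error only. The chaperones that hold unliganded steroid receptors were abundant by comparison: 13 of 13 were at or above 1 TPM and tested, with 6 fitted higher, 7 lower, a median of -0.02 and 0 called. Stip1, which links the HSP70 and HSP90 chaperones, had the smallest p (log2 fold change -0.33, SE 0.22). Of 16 glucocorticoid response genes 14 were tested, with 6 fitted higher, 8 lower, a median of -0.10 and 0 called. Sgk1, a kinase induced by corticosteroids, had the smallest p and was lower in the knockout library of all 4 prefixes, at 66.7, 24.1, 21.8 and 18.0 CPM in the control and 33.0, 15.98, 7.46 and 8.98 CPM in the knockout libraries (log2 fold change -0.99, SE 0.51).

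Of the receptors for lipids and vitamin D, 1 of each sterol and fatty acid family was expressed and the others were at or near 0. Nr1h2 (liver X receptor beta, a sensor of oxysterols) was at 9.23 ± 2.36 TPM in the control and 9.02 ± 2.37 TPM in the knockout (SD, n = 4 each), while Nr1h3 (liver X receptor alpha) had at most 3 counts in any library. Ppard, the PPAR form found in most tissues, was at 0.83, 2.76, 3.32 and 3.76 TPM in the control and 3.90, 1.48, 5.02 and 1.83 TPM in the knockout libraries, with control NX the low library. Ppara had at most 3 counts in any library, and Pparg had 2 counts in control NY and 0 in the other 7. The log2 fold changes were 0.04 for Nr1h2 (95% interval -0.79 to 0.87) and -0.10 for Ppard (interval -1.34 to 1.14). For Ppard it was -0.40 without control NX and 0.082 without control RM.

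The vitamin D receptor Vdr had 9, 0, 18 and 0 counts in the control and 3, 0, 1 and 0 counts in the knockout libraries. It was thus above the floor of 3 counts in control NX and QT and at or below it in the other 6 libraries. It did not enter the main test, and without the filter its log2 fold change was -2.28. Targets of the expressed sterol receptor were present: 11 of 12 LXR target genes were tested, with 7 fitted higher, 4 lower, a median of 0.10 and 0 called. Mylip, an LXR-induced ubiquitin ligase that degrades the LDL receptor, was at 6.11 ± 2.64 CPM in the control and 12.04 ± 4.50 CPM in the knockout (SD, n = 4 each, log2 fold change 0.97, SE 0.43, adjusted p = 0.9997 in edgeR with Benjamini-Hochberg adjustment). Of 18 PPAR target genes 13 were tested, with 5 fitted higher, 8 lower, a median of -0.11 and 0 called, and Acot2, a mitochondrial acyl-CoA thioesterase, had the smallest p (log2 fold change -0.65, SE 0.45).

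Between the genotypes, none of the 22 tested receptors was called. At an unadjusted p under 0.05 there was 1 receptor, Nr1d2, in edgeR's quasi-likelihood test, and DESeq2 gave 0 called and 3 at an unadjusted p under 0.05 (Nr1d2, Thrb and Esrra). Of the 22 receptors, 16 were fitted higher and 6 lower in the knockout, against 49.4% of all tested genes fitted higher, and the median log2 fold change was 0.29 against -0.01. With 1 library left out, the number fitted higher ran from 14 (without control NX, or without knockout RM) to 19 (without control RM), and the median from 0.10 (without control NX) to 0.48 (without control RM). Without both control NX and QT of the knockout it was 11 of 22, with a median of -0.0027, and without both NX libraries 15 of 21, with a median of 0.17. Several of the cell type lists given above moved beside this shift, and their part in it was not tested. The 95% intervals were narrowest for the abundant members (Thra, Nr2c2 and Esrra) and spanned more than 4 log2 units for Nr4a3, Thrb and Pgr, so large changes of the latter were not detectable at this depth and spread.

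**Figure D4:**
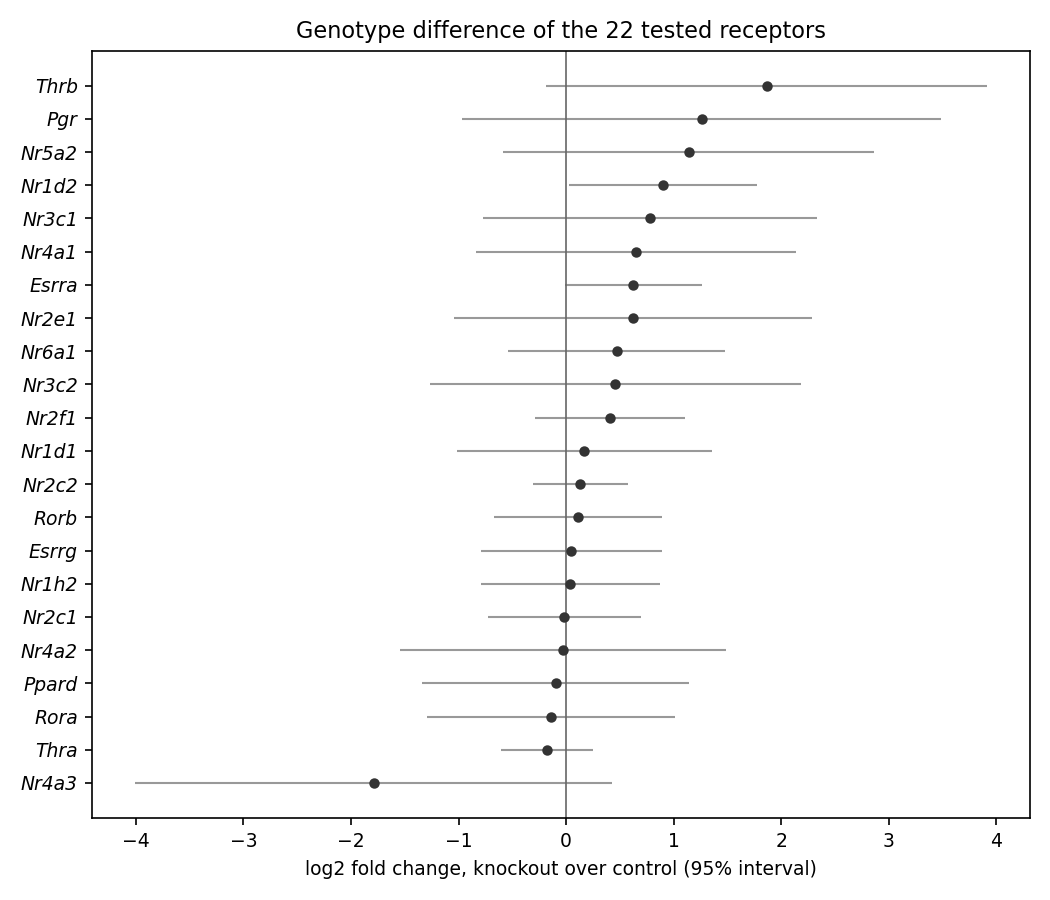
Log2 fold change, knockout over control, of the 22 tested receptors from edgeR's quasi-likelihood fit, ordered by size. Points are estimates and lines 95% intervals; the vertical line marks no difference. The interval of Nr1d2 alone leaves out 0 (0.02 to 1.77), before any adjustment for the number of genes, and that of Nr4a3 reaches from -4.01 to 0.43.

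The proteins through which nuclear receptors act were broadly expressed in these cells. All 15 corepressor genes were at or above 1 TPM and tested, as were 17 of 18 coactivator genes. Among the coactivators 6 were fitted higher and 11 lower (median -0.07, 0 called), and among the corepressors 6 higher and 9 lower (median -0.02, 0 called). Kat2b, the acetyltransferase PCAF, was at 29.3, 29.5, 39.2 and 26.5 CPM in the control and 58.6, 42.3, 51.0 and 34.4 CPM in the knockout libraries (log2 fold change 0.58, SE 0.24, adjusted p = 0.9997 in edgeR with Benjamini-Hochberg adjustment). The genotypes overlapped through control QT and knockout RM. Bcl11b (CTIP2), a partner of COUP-TF receptors and a factor of striatal projection neurons, was at 595 ± 146 CPM in the control and 827 ± 259 CPM in the knockout (SD, n = 4 each, log2 fold change 0.48, SE 0.28).

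Of 19 other nuclear receptors, which include the retinoid receptors that pair with many of the 30, 7 were tested, 2 were fitted higher and 5 lower (median -0.35), and 0 were called. Rara, the retinoic acid receptor alpha, had the smallest p at 41.7 ± 9.54 CPM in the control and 30.5 ± 9.53 CPM in the knockout (SD, n = 4 each, log2 fold change -0.45). The 5 receptors Nr1h4, Nr2e3, Nr5a1, Hnf4a and Hnf4g, which mark liver, retina, gonad or gut, were at 0 in all 8 libraries.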

How the data were processed

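RNA of 8 pooled, GFP-sorted libraries was sequenced (HiSeq 2500, cDNA amplified by a NuGEN Ovation kit, Nextera XT libraries, per the labels' protocols). Per the submitters' processing notes, the tools were RSEM 1.2.22, Trimmomatic 0.33 and Bowtie2, on build mm10; the annotation release is not given in the sources used here. The deposited values are RSEM expected counts, which share fragments that map to several places, and TPM. The matrices and the files of single libraries held identical values.

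Expected counts were rounded and tested with edgeR 4.0.16 (R 4.3.3; filterByExpr, TMM, quasi-likelihood test, genotype as the single term) and adjusted by Benjamini-Hochberg over 14157 genes, with calls at an adjusted p under 0.05. CPM values are scaled by TMM, and standard errors and 95% intervals come from the quasi-likelihood F. Alternatives changed the scaling, the filter, the tool (DESeq2 1.42.0, limma 3.58.1 on log2 TPM), the title prefix as a block and the libraries used. The procedure was tested on simulated counts. Gene positions and overlaps are from GENCODE M21 (GRCm38), and promoter windows from RefSeq (GRCm38.p6). Receptor windows on chromosome 18, where Nr3c1 lies, were left out, while the windows of all genes were not filtered in this way. Windows of 28 of the 30 receptors were used, without Thra and Nr3c1.

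The receptors and lists were chosen with earlier results of these data known, so no list is independent support. Every receptor is named, and each pathway list is represented by its tested gene with the smallest p. Cell type lists are given by their sums, and some also by their counts of genes fitted higher and lower. Values in every library are given by rule for receptors with an unadjusted p under 0.05 or genotypes that do not overlap, the 5 most abundant, the NR4A genes and those whose level class turns on a setting. Fos, Egr1, Dio1 and Dio2 were added after their values were seen, and 1 gene of the hormone transport list is not reported here. The counting step is not stated to use strand, and amplified fragments carry no molecular identifiers.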

Additional observations from a re-analysis of the deposited data

Results flagged for a closer look

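In 22 tested receptors, each with 4 libraries per genotype, 5 of 44 groups had a lowest library whose gap to the next exceeded Dixon's 95% critical share of the group's range in log2 CPM (prior count 2), and chance alone gives about 1 in 20. Control NX was that library for Thra (7.06, or 133 CPM), for Ppard (0.444, or 1.18 CPM) and for Nr3c2 (-1.71, or 0.124 CPM). Control NY was that library for Esrra (3.42, or 10.5 CPM), and knockout NY for Nr6a1 (1.37, or 2.40 CPM).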

How the results depend on the processing

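No receptor was called under any of the 20 alternatives. The counts of genes called (5 in the main test) and of receptors at an unadjusted p under 0.05 (1) were 9 and 0 without composition factors, 19 and 0 without a low-count filter, 40 and 3 with DESeq2, 10 and 0 with limma on log2(TPM + 1), and 5 and 0 with a pseudocount of 0.1. They were 5 and 2 with RLE size factors, and 28 and 2 with a replicate block by prefix. Leaving out 1 library gave 0 to 5 genes called and 0 to 3 receptors. Without both control NX and knockout QT there were 0 genes called and 1 receptor, Pgr. Leaving out both libraries of 1 prefix, chosen after seeing the data, gave 3 and 3 for NX, and 0 and 0 for each of NY, QT and RM. Each control library matched the knockout library of its own prefix best. The r across 14157 genes was 0.303 to 0.450 in NX, NY and RM but 0.0658 in QT. The prefix was not taken as a pairing because its meaning is not labelled and QT lay under the limit of 0.1 set for every pair.

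Between 11 and 20 receptors were fitted higher, with 20 of 22 under the replicate block. Signs turned for 10 receptors, whose main log2 fold changes lay between -0.14 and 0.46, and the cause was not tested. They turned without composition factors for Nr1h2 (-0.036); on log2(TPM + 1) for Nr4a2 (0.038), Nr1h2 (-0.033) and Ppard (0.14), and with 0.1 for Nr4a2 (0.16), Nr1h2 (-0.036) and Ppard (0.21). Under the replicate block they turned for Nr2c1 (0.026), Nr4a2 (0.19), Rora (0.063) and Ppard (0.030). Without control NX and knockout QT they turned for Nr2c1 (0.043), Nr2c2 (-0.024), Nr1d1 (-0.091), Rorb (-0.098), Nr3c2 (-0.069), Esrrg (-0.43) and Nr1h2 (-0.24). They turned without both NX for Nr2c1 (0.17) and Nr1d1 (-0.22), without both NY for Nr4a2 (0.20), Rora (0.049), Esrrg (-0.062) and Ppard (0.17), and without both RM for Nr2c1 (0.082), Nr4a2 (0.15) and Nr1h2 (-0.14). With 1 library left out the values ran from -0.16 to 0.14 (Nr2c1), -0.40 to 0.48 (Nr4a2), -0.076 to 0.46 (Nr1d1), -0.46 to 0.13 (Rora), -0.081 to 0.37 (Rorb), -0.24 to 0.55 (Esrrg), -0.15 to 0.18 (Nr1h2) and -0.40 to 0.082 (Ppard). The number of receptors at or above 1 TPM in the control was 18 or 19 with 1 control library left out. Of the 8 untested receptors, 4 had at most 3 counts in every library, so differences in them were not detectable at this depth.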
